A study of Homo sapiens with 12 samples.

Results

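The 33 genes described here make and handle cholesterol in human cells: 18 enzymes of cholesterol synthesis, 5 genes of the SREBP system, 2 of sterol transport, 3 of fatty acid and glycerolipid synthesis and 5 of the LXR arm, which drives efflux. They were listed by name, with no measured value in the rule. All 33 were found by symbol among the 78930 genes read, and all 33 were among the 24064 genes that passed the filter on low counts. RNA was sequenced from OCI-AML3, an acute myeloid leukaemia line whose mutant nucleophosmin lies in the cytoplasm (NPM1c), engineered so that the endogenous NPM1c carries a tag through which the compound dTAG-13 marks it for degradation. In 3 groups, cells were transduced with lentivirus for mCherry alone (dTAG mCherry), for full-length NPM1c (dTAG FL-NPM1c) or for a construct named C-body null (dTAG C-body null). They received 500 nM dTAG-13 at 48 hours after transduction and were sorted for mCherry 24 hours after that. The 4th group is NTC DMSO, where DMSO is the solvent. The same times are recorded for NTC DMSO, 48 hours from transduction to drug and 24 hours from drug to sort. The meaning of NTC is not given in the labels used here, its genotype label names no construct, and its treatment label reads dTAG whereas its titles read DMSO, so comparisons with it may mix more than 1 difference. All groups share the same line and the degron, so every value describes 1 engineered line. Each group had 3 libraries, and nothing in the labels says that these came from separate cultures. The p-values therefore set group differences against the spread between these libraries, and that spread may be only technical.

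Cholesterol is built from acetyl-CoA along the mevalonate pathway, which ends in farnesyl diphosphate, and then through squalene and lanosterol along the sterol steps. When membranes hold little sterol, SCAP escorts the SREBP transcription factors out of the endoplasmic reticulum, and they switch on synthesis and uptake genes. When sterol is plentiful, the INSIG proteins hold SCAP back, and oxysterols activate the LXR nuclear receptors, which switch on the exporters ABCA1 and ABCG1 and the ubiquitin ligase MYLIP, which removes lipoprotein receptors. LXR is also known to drive SREBF1, the gene of the SREBP that favours fatty acid synthesis. In myeloid cells, this balance changes as blasts mature into macrophages, which take up and export much cholesterol.

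The libraries held 30.5 M to 59.9 M counts, with a median of 41.0 M. Pairs of libraries differed most within dTAG mCherry, with a chi-square per degree of freedom of 10.6 to 33.6, against 3.45 to 17.4 within the other groups. Levels are given as CPM, the count scaled to a common library size. NPM1 RNA was at 1296 to 1515 CPM in NTC DMSO and 1059 to 1387 CPM in dTAG mCherry. It was at 1608 to 1684 CPM in dTAG FL-NPM1c and 1897 to 1937 CPM in dTAG C-body null. It includes the untagged allele and any construct, so it does not check the degradation of the protein. The line's myeloid identity was seen in its markers: monocyte and macrophage markers summed to 555 to 590 CPM in NTC DMSO. Their sums were 3671 to 4073 CPM in dTAG mCherry, 3267 to 3483 CPM with full-length NPM1c and 4830 to 5033 CPM with C-body null. All 12 of them were called higher in dTAG mCherry and in dTAG C-body null than in NTC DMSO, where 12.9% and 14.1% of all genes were. Against NTC DMSO, dTAG FL-NPM1c had 10 of them higher and 1 lower, where 14.6% of all genes were higher and 13.3% lower. Of the 6 blast markers, CD33, ANPEP, CSF3R and CEBPA were detected in every library, with summed levels of the list from 301.5 to 332.5 CPM in NTC DMSO and from 420.9 to 527.5 CPM in the 9 dTAG libraries. MPO was at 1.10 to 3.09 CPM, and KIT was at 0 in all 12 libraries. All 5 that were tested were called higher in dTAG C-body null than in NTC DMSO. The T cell markers CD3D, CD3E and CD2 were at 0 in all 12 libraries. NKG7, the other marker of the T and NK cell list, was at 0.725 to 1.37 CPM. Because these are bulk samples, fewer cells of a type and less RNA per cell cannot be told apart. The part of these markers in the values below was not tested.

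Most members changed little between the groups. The ratio of the highest to the lowest group mean was under 1.5 for 30 of the 33 members, with a median of 1.27 over all 33. The 3 members above it were ABCG1, with a ratio of 3.78, TM7SF2, with 2.82, and SREBF1, with 1.77. Over the 6 comparisons between groups, 20 members were called at least once, with a call defined as an adjusted p under 0.05 in edgeR's quasi-likelihood test over all genes tested. The 13 others were MVK, PMVK, MVD, SQLE, CYP51A1, MSMO1, NSDHL, EBP, SREBF2, SCAP, NPC1, FASN and LPIN1. The share of all genes called at least once was not computed, so nothing is read from the count of 20. Shares for each comparison are given below.

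**Figure D1:**
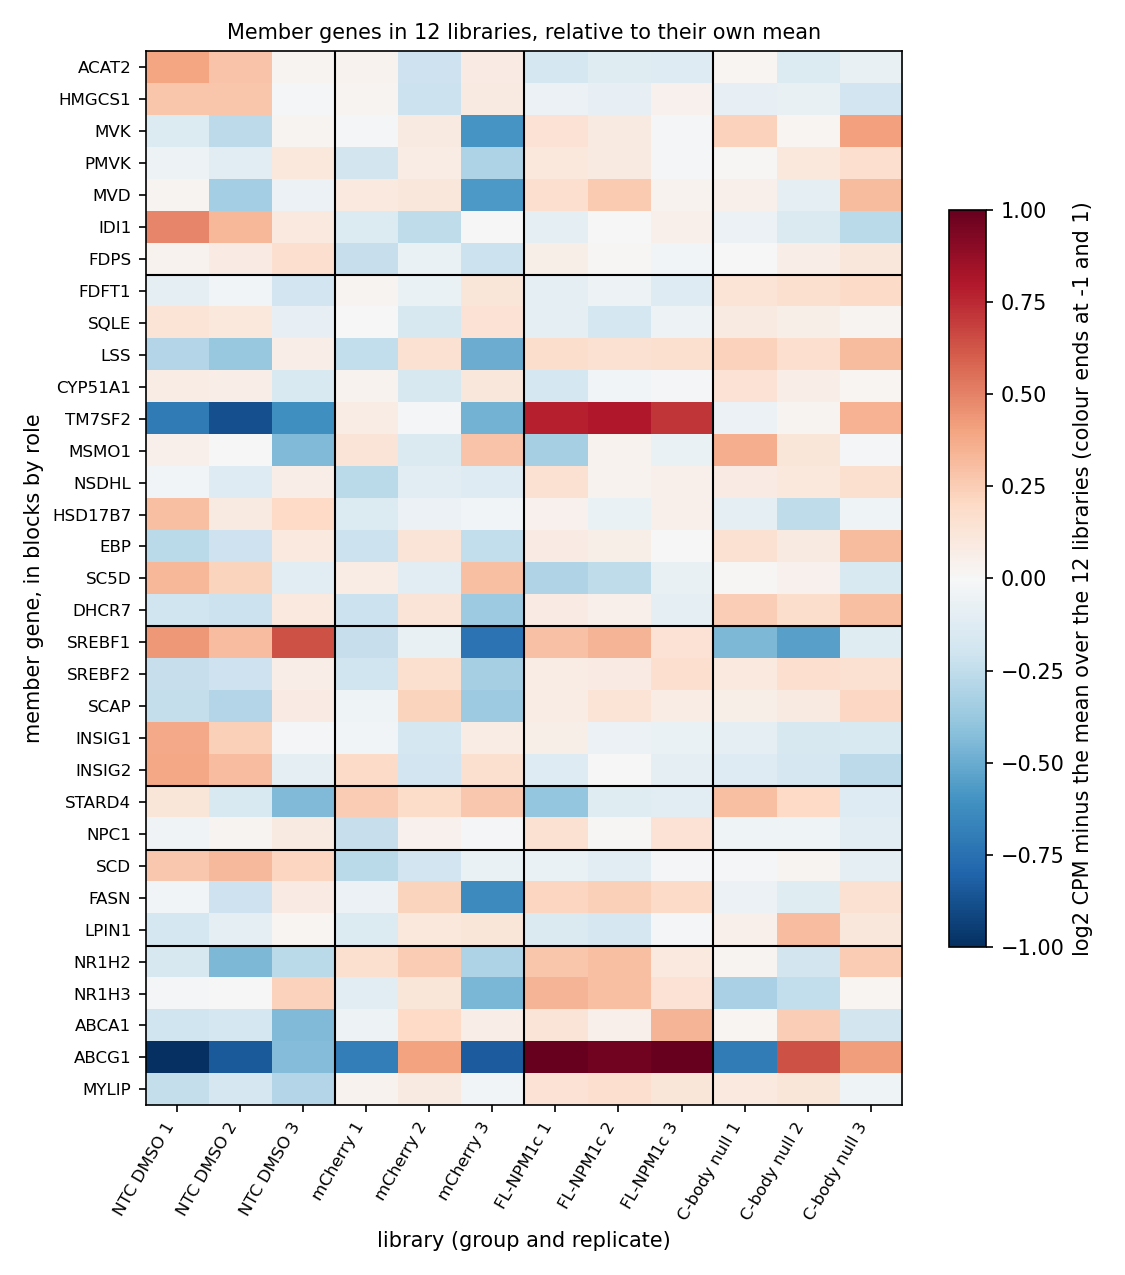
Each row is a member gene, in blocks by role (mevalonate steps, sterol steps, SREBP system, transport, fatty acid and glycerolipid enzymes, LXR arm), and each column is 1 of the 12 libraries; colour is log2 CPM minus the gene's mean over the libraries. TM7SF2 and ABCG1 are highest in the 3 dTAG FL-NPM1c libraries, SREBF1 is lower in dTAG mCherry and dTAG C-body null than in the other groups, and dTAG mCherry replicates 2 and 3 differ in many rows.

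The same genes spanned a wide range of abundance. Per kilobase of exon, SCD was the highest in NTC DMSO at 64.0 ± 2.5 CPM per kilobase (SD, n = 3), followed by INSIG1 at 53.5 ± 7.2 and FDPS at 52.3 ± 2.5; INSIG1 and FDPS did not differ beyond their spread. In all, 9 members were at 20 CPM per kilobase or more there. At the other end, 3 members were under 1 CPM per kilobase: MVK at 0.968, ABCA1 at 0.965 and ABCG1 at 0.0167. Of the exporters, ABCA1 was thus far the more abundant in this line.

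Within groups, dTAG mCherry was the least uniform for these genes. Its libraries spanned a median of 0.38 log2 units over the 33 members, against 0.13 in dTAG FL-NPM1c, 0.16 in dTAG C-body null and 0.29 in NTC DMSO. Replicates 2 and 3 were the opposite extremes of the dTAG mCherry group for 24 of the 33 members. Mitochondrial transcripts, a sign of RNA or cell quality, took 8.41%, 7.32% and 9.63% of the counts in its replicates 1, 2 and 3, against 6.83% to 7.63% in the 9 libraries of the other groups; their part in these differences was not tested. FASN, the fatty acid synthase, was at 228, 278 and 152 CPM in replicates 1, 2 and 3. Calls that use this group are given below also without the replicates that change them.

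Comparisons with dTAG mCherry, NTC DMSO or any other group in common share libraries and are not independent of each other. In dTAG mCherry against NTC DMSO, 2 members were higher and 4 were lower, 18.2% of the 33, where 22.6% of all genes tested were called (12.9% higher and 9.69% lower). For dTAG FL-NPM1c against dTAG mCherry, the count was 3 higher and 1 lower (12.1%), against a background of 15.5% (7.58% higher and 7.95% lower). Between dTAG FL-NPM1c and dTAG C-body null it was again 3 higher and 1 lower (12.1%), against a background of 9.68% (4.82% higher and 4.86% lower). The share of members called was thus near that of all genes in each of these comparisons. In dTAG FL-NPM1c against NTC DMSO, 5 were higher and 4 lower (27.3%; all genes 27.9%, with 14.6% higher and 13.3% lower). In dTAG C-body null against NTC DMSO, 5 were higher and 8 lower (39.4%; all genes 26.6%, with 14.1% higher and 12.4% lower). Leaving out 1 library at a time moved these 5 totals from 6 to between 4 and 9, from 4 to between 1 and 13, from 4 to between 1 and 4, from 9 to between 6 and 15, and from 13 to between 6 and 16.

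Between dTAG C-body null and dTAG mCherry, edgeR called 0 of the 33 members, where it called 0.594% of all genes (0.216% higher and 0.378% lower). At an unadjusted p under 0.05 there were 8 members, and DESeq2 called 2, FDPS and NSDHL, both higher in dTAG C-body null. Without dTAG mCherry replicate 2, edgeR called 6 members, all higher in dTAG C-body null: PMVK, FDPS, LSS, EBP, DHCR7 and SREBF2, 18.2% of the 33 where 5.70% of all genes were called. The largest differences with all libraries were a log2 fold change of 0.42 ± 0.45 (SE) for ABCG1, 0.41 ± 0.14 for LSS and 0.38 ± 0.12 for DHCR7, with edgeR adjusted p = 0.709, 0.257 and 0.221.

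**Figure D2:**
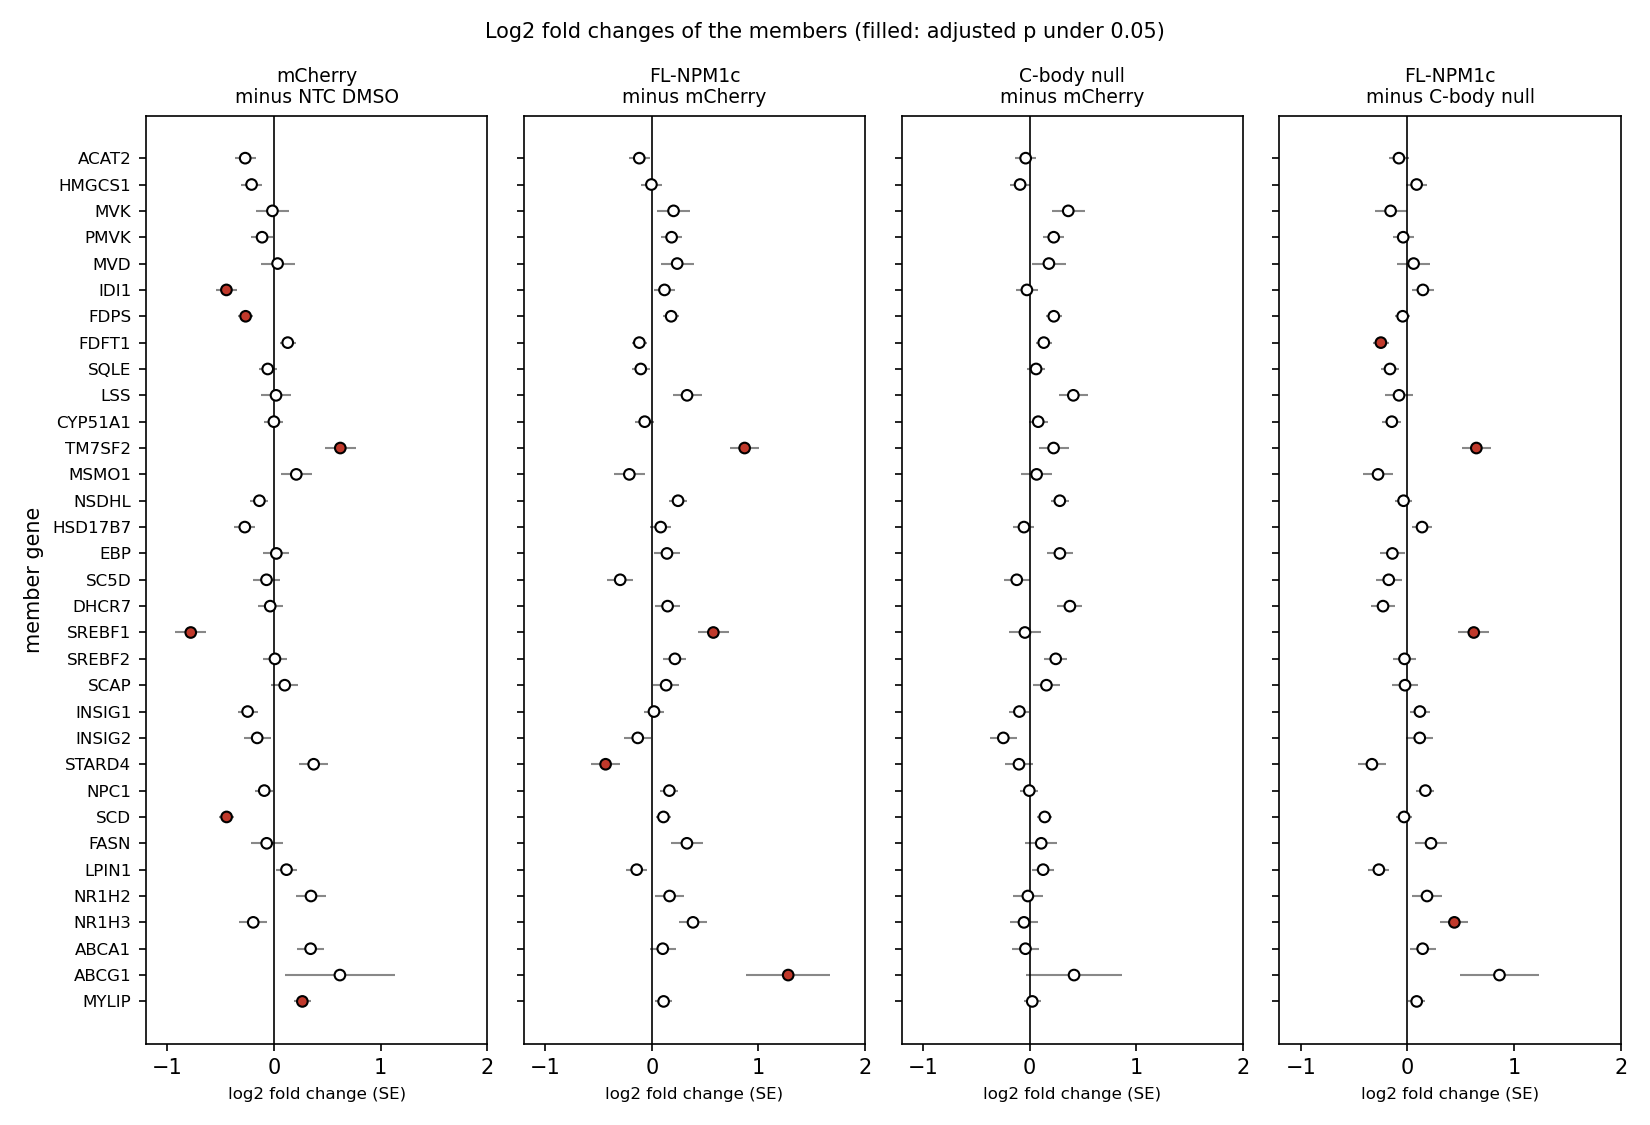
Log2 fold change of each of the 33 members (points) with its standard error (bars) in 4 comparisons; filled points have an edgeR adjusted p under 0.05. TM7SF2 and SREBF1 are filled in 3 of the 4 panels, and the panel of dTAG C-body null against dTAG mCherry has no filled point.

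Among the SREBP genes, SREBF1 changed and SREBF2 was not called. SREBF1 lies at chr17:17810399-17837002 on the minus strand (GRCh38, GENCODE 29) and TM7SF2, the enzyme described after it, at chr11:65111845-65116384 on the plus strand. As the members called in most comparisons, their upstream windows are shown with that of SREBF2, the only one of the members' windows with a match to a sterol regulatory element. The sequences are RefSeq's on GRCh38.p14, the 250 bases before the RefSeq start site, 5′ to 3′ on the gene's strand. Capitals mark matches to TCACNCCAC (a form of the sterol regulatory element) or to CCAAT, searched on both strands, so that CCAAT on the opposite strand reads ATTGG.
SREBF1, chr17:17836987-17837236, minus strand: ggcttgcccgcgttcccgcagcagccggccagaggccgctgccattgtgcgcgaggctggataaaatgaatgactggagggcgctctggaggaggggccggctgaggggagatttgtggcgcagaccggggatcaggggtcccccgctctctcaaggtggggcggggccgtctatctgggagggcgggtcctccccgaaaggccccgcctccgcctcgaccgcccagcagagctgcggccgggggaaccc
TM7SF2, chr11:65111622-65111871, plus strand: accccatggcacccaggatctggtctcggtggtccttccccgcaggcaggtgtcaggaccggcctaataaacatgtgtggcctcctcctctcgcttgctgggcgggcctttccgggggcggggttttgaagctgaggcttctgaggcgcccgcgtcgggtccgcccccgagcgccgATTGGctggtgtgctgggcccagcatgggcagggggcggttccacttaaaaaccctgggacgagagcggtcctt
SREBF2, chr22:41832855-41833104, plus strand: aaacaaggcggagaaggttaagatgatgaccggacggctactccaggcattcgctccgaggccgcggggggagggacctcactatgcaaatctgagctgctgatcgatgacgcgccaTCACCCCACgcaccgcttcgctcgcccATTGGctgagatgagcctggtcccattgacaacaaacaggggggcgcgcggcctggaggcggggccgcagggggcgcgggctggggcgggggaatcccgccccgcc
Neither motif was found in the SREBF1 window. TM7SF2 has the opposite-strand CCAAT form 74 bases before its start. SREBF2 has TCACCCCAC at 133 bases and the opposite-strand CCAAT form at 106 bases, and these do not overlap. Windows were found for 28 of the 33 members, with 39 windows in all, since 7 genes have several; SQLE, FDFT1, ACAT2, ABCG1 and FASN had none. TCACNCCAC occurs in 1 of the 39 windows (2.56%) and in 0.883% of 35116 windows of all genes. CCAAT occurs in 21 of the 39 (53.8%), in 19 genes, and in 32.0% of all windows. A pair of AGGTCA half-sites in the same orientation with any 4 bases between them, a form of the LXR element, was in 0 of the 39 and in 0.0142% of all windows. Such matches describe letters in these windows and show no binding.

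SREBF1 RNA was at 42.3, 38.9 and 48.8 CPM in the NTC DMSO libraries 1 to 3 and at 26.8, 29.9 and 18.8 CPM in dTAG mCherry. It was at 38.4, 39.8 and 34.8 CPM in dTAG FL-NPM1c and at 23.0, 21.5 and 28.8 CPM in dTAG C-body null. Every library of NTC DMSO and of dTAG FL-NPM1c was above every library of the other groups. SREBF1 fell in dTAG mCherry against NTC DMSO, with a log2 fold change of -0.78 ± 0.15 (SE) and edgeR adjusted p = 0.000934, and likewise in dTAG C-body null against NTC DMSO, with -0.82 ± 0.15 and edgeR adjusted p = 0.000462. Both calls held under all 13 alternatives tried. With full-length NPM1c it was higher than in dTAG mCherry by 0.58 ± 0.15 (log2, edgeR adjusted p = 0.0153) and higher than in dTAG C-body null by 0.62 ± 0.15 (edgeR adjusted p = 0.0112). The first of these was lost without dTAG FL-NPM1c replicate 1 or 2 or dTAG mCherry replicate 3 (adjusted p = 0.0519 to 0.0635), and the second without dTAG C-body null replicate 1 or 2 or dTAG FL-NPM1c replicate 2 (0.0521 to 0.0725). Between dTAG FL-NPM1c and NTC DMSO it differed by -0.20 ± 0.14 (edgeR adjusted p = 0.314). Between dTAG C-body null and dTAG mCherry the difference was -0.04 ± 0.15 (edgeR adjusted p = 0.918). SREBF1 shares 556 bases with RAI1 on the opposite strand, and whether the counting used strand is not given in the sources used here, so part of its count could be RAI1's.

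SREBF2, the gene of the SREBP that favours cholesterol synthesis, was at 107 ± 13 CPM for NTC DMSO, 108 ± 19 for dTAG mCherry, 126 ± 4.6 for dTAG FL-NPM1c and 128 ± 3.3 for dTAG C-body null (SD, n = 3). Its libraries overlapped between dTAG mCherry and each other group. The SREBP escort SCAP was at 37.7 to 56.5 CPM over all 12 libraries and was called in 0 of the 6 comparisons.

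The INSIG genes, whose products hold SCAP in the endoplasmic reticulum and of which INSIG1 is itself an SREBP target, were lower in dTAG C-body null than in NTC DMSO. INSIG1 was at 219, 199 and 167 CPM in NTC DMSO and at 158, 151 and 152 CPM in dTAG C-body null. It fell by 0.34 ± 0.09 on the log2 scale (edgeR adjusted p = 0.0115), a call lost without NTC DMSO replicate 1 or 2 or dTAG C-body null replicate 2 (adjusted p = 0.0516 to 0.0816). INSIG2 went from 14.8, 13.9 and 10.6 CPM to 10.3, 10.0 and 9.39 CPM, the groups not overlapping. Its log2 fold change was -0.40 ± 0.13 (edgeR adjusted p = 0.0265), and only leaving out NTC DMSO replicate 3 kept the call (0.0527 to 0.138 without each of the 5 others). In dTAG mCherry and dTAG FL-NPM1c, INSIG1 was at 165 ± 14 and 167 ± 8.2 CPM, and its difference from NTC DMSO was not called in either (edgeR adjusted p = 0.0682 and 0.0807). DESeq2 did call INSIG1 lower than NTC DMSO in both (adjusted p = 0.0333 and 0.0493), as did edgeR with no low-count filter (0.0150 and 0.0347). INSIG2 was not called in these groups. In dTAG FL-NPM1c it passed the threshold for the 2 groups alone (edgeR adjusted p = 0.0434) and without NTC DMSO replicate 3 (0.0114).

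In the mevalonate steps, 0 of 7 enzymes were called higher and up to 3 were called lower in any comparison with NTC DMSO. Of all genes, 12.9% to 14.6% were called higher and 9.69% to 13.3% lower in these comparisons. IDI1, which isomerizes isopentenyl diphosphate, changed the most. Its libraries read 84.2, 75.8 and 64.4 CPM in NTC DMSO, 54.7, 50.4 and 59.8 in dTAG mCherry, 56.4, 60.2 and 62.4 in dTAG FL-NPM1c, and 57.6, 54.5 and 49.8 in dTAG C-body null. Every NTC DMSO library was above every library of the other 3 groups. The log2 fold changes against NTC DMSO were -0.45 ± 0.10 in dTAG mCherry (edgeR adjusted p = 0.00385), -0.33 ± 0.10 in dTAG FL-NPM1c (edgeR adjusted p = 0.0226) and -0.47 ± 0.10 in dTAG C-body null (edgeR adjusted p = 0.00208). The call in dTAG FL-NPM1c was lost without NTC DMSO replicate 1 or 2 or dTAG FL-NPM1c replicate 1 or 2 (0.0589 to 0.133), and those in the other groups held with every library left out. IDI1 was called in 0 of the 3 comparisons among the dTAG groups.

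FDPS, the synthase of farnesyl diphosphate, was at 186, 192 and 205 CPM in NTC DMSO and 155, 174 and 156 CPM in dTAG mCherry. These groups did not overlap, and FDPS fell by 0.27 ± 0.07 on the log2 scale (edgeR adjusted p = 0.0137). The call was lost when dTAG mCherry replicate 1 was left out (adjusted p = 0.0624) and in a fit of the 2 groups alone (adjusted p = 0.100). With full-length NPM1c and with C-body null, FDPS was at 183 ± 5.3 and 189 ± 8.0 CPM, with log2 fold changes against NTC DMSO of -0.08 ± 0.07 and -0.04 ± 0.07 (edgeR adjusted p = 0.415 and 0.741). ACAT2, the cytosolic thiolase that opens the pathway, was at 108, 100 and 84.1 CPM in NTC DMSO. It was lower in dTAG FL-NPM1c, at 72.8, 75.7 and 75.4 CPM (log2 fold change -0.39 ± 0.10, edgeR adjusted p = 0.00739), and in dTAG C-body null, at 83.4, 75.0 and 78.3 CPM (-0.31 ± 0.10, edgeR adjusted p = 0.0270). The former call was lost without NTC DMSO replicate 1 (0.0510), the latter without NTC DMSO replicate 1 or 2 or dTAG C-body null replicate 2 or 3 (0.0888 to 0.148). In dTAG mCherry, ACAT2 was at 84.3, 71.4 and 87.3 CPM and was not called against NTC DMSO in the main edgeR fit. DESeq2 did call it lower there (adjusted p = 0.0249), as did edgeR with RLE factors (0.0427) and with no low-count filter (0.0124). ACAT2 overlaps TCP1 and a SOD2 gene model on the opposite strand.

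HMGCS1, the synthase of the second step, was at 96.1 ± 11 CPM in NTC DMSO and 78.1 ± 3.5 CPM in dTAG C-body null. Its log2 fold change was -0.30 ± 0.10 (edgeR adjusted p = 0.0285), a call that was kept without NTC DMSO replicate 3 and lost without each of the other 5 libraries (0.0604 to 0.146). In dTAG mCherry and dTAG FL-NPM1c, HMGCS1 was at 83.2 ± 8.9 and 82.9 ± 3.7 CPM, and neither was called against NTC DMSO in the main edgeR fit. Without NTC DMSO replicate 3, both were called lower (edgeR adjusted p = 0.0236 and 0.0161). For the 2 groups alone, dTAG FL-NPM1c was called too (0.0499). The kinases MVK and PMVK and the decarboxylase MVD were called in 0 of the 6 comparisons. MVK was the lowest of the pathway, at 4.51 to 9.03 CPM over the 12 libraries.

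Among the 11 sterol steps, TM7SF2, a sterol reductase of the nuclear envelope and endoplasmic reticulum, was the member with the most calls. It was at 3.79, 3.38 and 4.04 CPM in NTC DMSO and 6.52, 6.16 and 4.48 CPM in dTAG mCherry. With full-length NPM1c it reached 10.6, 10.8 and 10.2 CPM, and with C-body null it was at 5.96, 6.30 and 7.86 CPM. The order was NTC DMSO, dTAG mCherry, dTAG C-body null and dTAG FL-NPM1c. Only dTAG mCherry and dTAG C-body null overlapped, and their difference missed the threshold (log2 fold change 0.22 ± 0.14, edgeR adjusted p = 0.527).

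Against NTC DMSO, TM7SF2 rose by 0.62 ± 0.15 on the log2 scale in dTAG mCherry (edgeR adjusted p = 0.00566), by 0.85 ± 0.15 in dTAG C-body null (edgeR adjusted p = 0.000357) and by 1.49 ± 0.14 in dTAG FL-NPM1c (edgeR adjusted p = 1.46e-06). In dTAG FL-NPM1c it was above dTAG mCherry by 0.87 ± 0.14 (edgeR adjusted p = 0.000599) and above dTAG C-body null by 0.65 ± 0.14 (edgeR adjusted p = 0.00521). All 5 calls held under the 13 alternatives. TM7SF2 shares 16 bases with VPS51 on the same strand. Its neighbours in the pathway were not called: CYP51A1, the lanosterol demethylase that acts just before it, was at 66.6 to 83.0 CPM over the 12 libraries and was called in 0 of 6 comparisons, and MSMO1, which follows, at 13.7 to 23.9 CPM, in 0 of 6. Part of the CYP51A1 count is uncertain, since another gene model covers 2844 of its bases on the same strand.

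**Figure D3:**
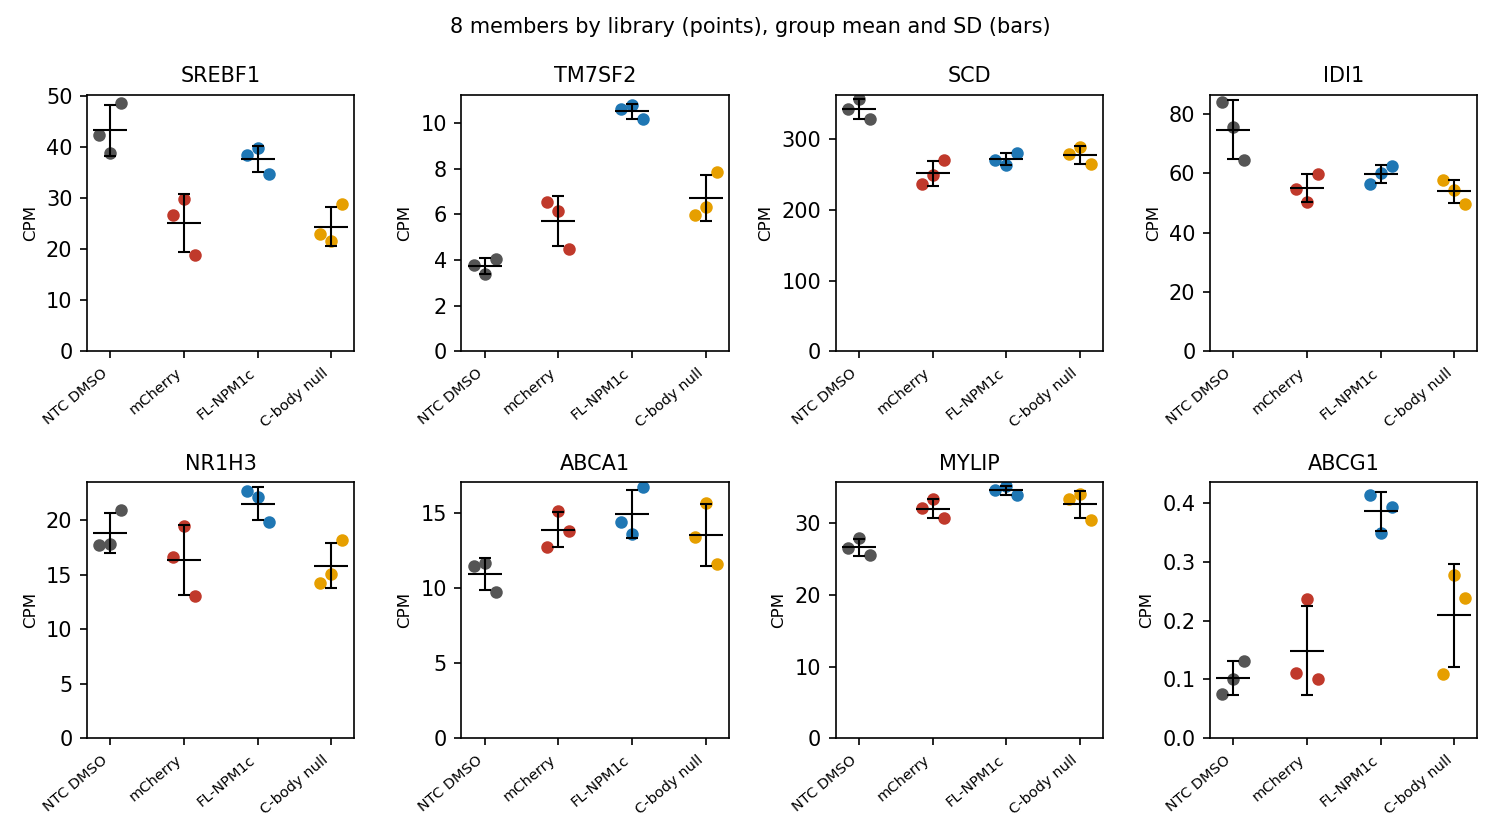
CPM of 8 members in each library (points), by group, with the group mean and SD (bars, n = 3); each axis starts at 0 and has its own scale. SREBF1 is high in NTC DMSO and dTAG FL-NPM1c, TM7SF2 and ABCG1 are highest in dTAG FL-NPM1c, and SCD and IDI1 are highest in NTC DMSO.

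The other sterol enzymes were called mostly in dTAG C-body null against NTC DMSO. In the main edgeR fit, 0 of the 11 sterol enzymes were called between dTAG C-body null and dTAG mCherry. FDFT1, the squalene synthase at the branch to sterols, was at 99.2, 104 and 92.6 CPM in NTC DMSO, 99.2, 102 and 96.8 in dTAG FL-NPM1c and 116, 118 and 121 in dTAG C-body null. The dTAG C-body null libraries lay above all libraries of both other groups. FDFT1 was higher there than in NTC DMSO by 0.26 ± 0.07 on the log2 scale (edgeR adjusted p = 0.0139, lost at 0.0618 to 0.0715 without dTAG C-body null replicate 2 or 3). It was lower in dTAG FL-NPM1c than in dTAG C-body null, with a log2 fold change of -0.25 ± 0.07 (edgeR adjusted p = 0.0409), which was lost without any 1 of the 6 libraries (0.0823 to 0.118).

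LSS, the lanosterol synthase, was at 37.6 ± 6.4 CPM in NTC DMSO and 50.6 ± 2.7 CPM in dTAG C-body null (SD, n = 3), a rise of 0.43 ± 0.14 on the log2 scale (edgeR adjusted p = 0.0276). DHCR7, which catalyses a last step to cholesterol, was at 27.5, 27.1 and 33.7 CPM and at 37.4, 35.6 and 38.8 CPM in the same groups, a rise of 0.34 ± 0.12 (edgeR adjusted p = 0.0402). The libraries of these groups did not overlap for either gene. HSD17B7, a ketosteroid reductase of the demethylation complex, moved the other way, from 10.9 ± 0.80 to 8.72 ± 0.66 CPM (-0.33 ± 0.10, edgeR adjusted p = 0.0201). The LSS call was lost without NTC DMSO replicate 1 or 2 or dTAG C-body null replicate 1 or 3 (0.0644 to 0.110), that of DHCR7 without any library other than NTC DMSO replicate 3 (0.0516 to 0.149), and that of HSD17B7 without NTC DMSO replicate 1 or dTAG C-body null replicate 1 or 2 (up to 0.101). In dTAG mCherry, HSD17B7 was at 8.676, 9.135 and 9.355 CPM and was not called against NTC DMSO in the main edgeR fit. DESeq2 did call it lower there (adjusted p = 0.0289), as did edgeR with RLE factors (0.0371). HSD17B7 also has 2 pseudogene models with counts of their own, so its count is uncertain. In dTAG FL-NPM1c too, LSS was above every NTC DMSO library, at 48.3, 47.6 and 47.8 CPM. That difference was not among the calls. It passed the threshold with no low-count filter (edgeR adjusted p = 0.00859), for the 2 groups alone (0.0199) and without NTC DMSO replicate 3 (0.00923), but not under the other alternatives. SC5D, a sterol desaturase, fell in dTAG FL-NPM1c against NTC DMSO by 0.37 ± 0.12 on the log2 scale (edgeR adjusted p = 0.0342) although the groups overlapped, and leaving out NTC DMSO replicate 1 or 2 or dTAG FL-NPM1c replicate 1 or 2 ended the call (0.0945 to 0.166).

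NSDHL, a decarboxylating dehydrogenase of the same complex, was at 19.2, 21.4 and 21.1 CPM in dTAG mCherry and 25.6, 23.6 and 23.9 CPM in dTAG FL-NPM1c. The groups did not overlap, with a log2 fold change of 0.25 ± 0.08 and edgeR adjusted p = 0.0584, which missed the threshold. SQLE, the squalene epoxidase that limits the flow into sterols, stayed between 110 and 137 CPM in all 12 libraries, and the isomerase EBP between 9.20 and 13.8 CPM. Neither was called in any of the 6 comparisons.

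Of the transport genes, STARD4, which carries sterol between membranes, was at 16.01 ± 3.1 CPM (SD, n = 3) in NTC DMSO, 21.0, 19.99 and 21.3 in dTAG mCherry, 13.5, 16.2 and 16.4 in dTAG FL-NPM1c, and 21.7, 20.3 and 16.1 in dTAG C-body null. The dTAG mCherry libraries were above all those of dTAG FL-NPM1c, with a log2 fold change of -0.43 ± 0.13 for dTAG FL-NPM1c against dTAG mCherry (edgeR adjusted p = 0.0395). This call was kept without dTAG mCherry replicate 2 but lost without each of the 5 other libraries (0.0550 to 0.137). NPC1, which exports cholesterol from lysosomes, was at 39.2 to 50.9 CPM in the 12 libraries and was called in 0 of 6 comparisons.

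SCD, the stearoyl-CoA desaturase and an SREBP and LXR target, was the most abundant member per kilobase of exon, by group mean in each of the 4 groups, and fell in all 3 dTAG groups against NTC DMSO. Its gene lies at chr10:100347124-100364834 on the plus strand. SCD was at 343, 357 and 330 CPM in NTC DMSO, 236, 249 and 271 in dTAG mCherry, 271, 264 and 281 in dTAG FL-NPM1c, and 280, 290 and 265 in dTAG C-body null. All 3 NTC DMSO libraries lay above all 9 others. The log2 fold changes were -0.44 ± 0.07 (edgeR adjusted p = 0.000258), -0.33 ± 0.07 (edgeR adjusted p = 0.00269) and -0.30 ± 0.07 (edgeR adjusted p = 0.00463) in dTAG mCherry, dTAG FL-NPM1c and dTAG C-body null, and each held under all 13 alternatives. SCD was not called in dTAG FL-NPM1c against dTAG mCherry, nor against dTAG C-body null.

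FASN was at 233, 206 and 252 CPM in NTC DMSO, 275, 280 and 272 in dTAG FL-NPM1c and 228, 218 and 263 in dTAG C-body null, and it was called in 0 of 6 comparisons. Without dTAG mCherry replicate 2, which was its highest dTAG mCherry library, FASN was called higher in dTAG FL-NPM1c than in dTAG mCherry (log2 fold change 0.53). LPIN1, a phosphatidate phosphatase of glycerolipid synthesis, was at 17.8 to 24.9 CPM over the 12 libraries and was called in 0 of 6 comparisons.

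In the LXR arm, NR1H2, ABCA1 and MYLIP were called higher in dTAG FL-NPM1c than in NTC DMSO, where 14.6% of all genes were. ABCG1 was called too, but it passed the low-count filter only through the group where it was highest. NR1H3 was not called in that comparison. The exporter ABCA1 (chr9:104781002-104928237, minus strand) was at 11.5, 11.7 and 9.70 CPM in NTC DMSO, 12.7, 15.1 and 13.8 in dTAG mCherry, 14.4, 13.6 and 16.7 in dTAG FL-NPM1c, and 13.4, 15.6 and 11.6 in dTAG C-body null. Each dTAG FL-NPM1c and dTAG mCherry library was above the NTC DMSO range, and dTAG C-body null overlapped it. ABCA1 rose in dTAG FL-NPM1c against NTC DMSO by 0.45 ± 0.12 on the log2 scale (edgeR adjusted p = 0.0127), a call lost without dTAG FL-NPM1c replicate 3 (0.0651). In dTAG mCherry and dTAG C-body null the log2 fold changes were 0.34 ± 0.12 and 0.30 ± 0.12, which missed the threshold (edgeR adjusted p = 0.0564 and 0.0816). The summed monocyte and macrophage markers were also higher in these 3 groups than in NTC DMSO, but lower in dTAG FL-NPM1c than in dTAG C-body null. Their part in these values was not tested.

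ABCG1 (chr21:42199689-42297244, plus strand), which exports cholesterol to mature lipoproteins, was barely detected. Its raw counts were 3, 4 and 5 in NTC DMSO, 4, 11 and 3 in dTAG mCherry, 19, 15 and 24 in dTAG FL-NPM1c, and 4, 11 and 10 in dTAG C-body null. As CPM, these were 0.0744 to 0.132, 0.100 to 0.236, 0.350 to 0.414 and 0.110 to 0.278, so that the 3 dTAG FL-NPM1c libraries were above all 9 others. Since the gene passed the low-count filter through the dTAG FL-NPM1c libraries, its values without that filter are given too. ABCG1 rose by 1.897 ± 0.42 on the log2 scale in dTAG FL-NPM1c against NTC DMSO (edgeR adjusted p = 0.00365) and by 1.28 ± 0.39 against dTAG mCherry (edgeR adjusted p = 0.0374). With no low-count filter, the log2 fold changes were 1.88 and 1.29, with edgeR adjusted p = 0.00165 and 0.0479. The first call held with every library left out, and the second was lost without any library other than dTAG mCherry replicate 2 (0.0781 to 0.144). Against dTAG C-body null, the log2 fold change was 0.86 ± 0.37 and missed the threshold (edgeR adjusted p = 0.158).

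MYLIP (chr6:16129125-16148248, plus strand), the ligase that removes lipoprotein receptors, was higher in all 3 dTAG groups than in NTC DMSO. Its libraries read 26.5, 27.9 and 25.5 CPM in NTC DMSO, 32.1, 33.3 and 30.7 in dTAG mCherry, 34.6, 35.3 and 34.0 in dTAG FL-NPM1c, and 33.4, 34.0 and 30.4 in dTAG C-body null. All NTC DMSO libraries were below all others. The log2 fold changes were 0.27 ± 0.08 (edgeR adjusted p = 0.0223), 0.38 ± 0.08 (edgeR adjusted p = 0.00223) and 0.29 ± 0.08 (edgeR adjusted p = 0.0114). Only the value of dTAG FL-NPM1c held with every library left out; that of dTAG mCherry was lost without NTC DMSO replicate 1 or 3 or dTAG mCherry replicate 1 (0.0637 to 0.0731), and that of dTAG C-body null without its replicate 1 or 2 (0.0515 to 0.0668).

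The LXR receptor genes followed different orders. NR1H2, the widely expressed receptor, was at 13.9, 11.4 and 12.9 CPM in NTC DMSO and 18.8, 19.1 and 16.6 CPM in dTAG FL-NPM1c, a rise of 0.51 ± 0.14 on the log2 scale (edgeR adjusted p = 0.0120) that was lost without NTC DMSO replicate 2 or dTAG FL-NPM1c replicate 1 (0.0501 to 0.0728). NR1H3, the receptor of macrophages and liver, was at 17.7, 17.8 and 21.0 CPM in NTC DMSO, 16.6, 19.5 and 13.03 in dTAG mCherry, 22.6, 22.1 and 19.8 in dTAG FL-NPM1c, and 14.2, 15.1 and 18.1 in dTAG C-body null. All dTAG FL-NPM1c libraries were above those of dTAG mCherry and dTAG C-body null. NR1H3 was higher with full-length NPM1c than with C-body null by 0.44 ± 0.13 (edgeR adjusted p = 0.0446), a call lost without any library other than dTAG C-body null replicate 3 (0.0514 to 0.192), and also with other scale factors (0.0502 for RLE factors and 0.0554 for library totals). Against dTAG mCherry its log2 fold change was 0.39 ± 0.13 (edgeR adjusted p = 0.0569). NR1H3 shares 189 bases with ACP2 on the opposite strand.

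Synthesis was set against efflux as the mean log2 CPM of the 18 synthesis enzymes minus that of ABCA1 and ABCG1, given as a description with no test. The synthesis mean was nearly level, at 5.01 ± 0.04 for NTC DMSO, 4.95 ± 0.04 for dTAG mCherry, 5.07 ± 0.01 for dTAG FL-NPM1c and 5.11 ± 0.04 for dTAG C-body null (SD, n = 3). The efflux mean was 0.35 ± 0.09, 0.69 ± 0.31, 1.34 ± 0.11 and 0.86 ± 0.32 in the same order. The difference ranged over 4.58 to 4.80 for NTC DMSO, 3.93 to 4.46 for dTAG mCherry, 3.62 to 3.86 for dTAG FL-NPM1c and 3.88 to 4.57 for dTAG C-body null. The NTC DMSO libraries had the 3 highest differences and the dTAG FL-NPM1c libraries the 3 lowest. Between dTAG C-body null and dTAG mCherry the group means differed by -0.02, a value whose sign is not fixed: it ran from -0.18 to 0.16 with 1 library left out, and was positive without dTAG C-body null replicate 2 (0.16), dTAG mCherry replicate 1 (0.08) or dTAG mCherry replicate 3 (0.05). ABCG1, which with ABCA1 makes up the efflux mean, had few counts and passed the low-count filter only through the dTAG FL-NPM1c libraries. The efflux mean carries its counting error, so nothing is read from the order of the groups. For ABCA1 alone, dTAG FL-NPM1c (13.6 to 16.7 CPM) overlapped dTAG mCherry (12.7 to 15.1 CPM) and dTAG C-body null (11.6 to 15.6 CPM).

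**Figure D4:**
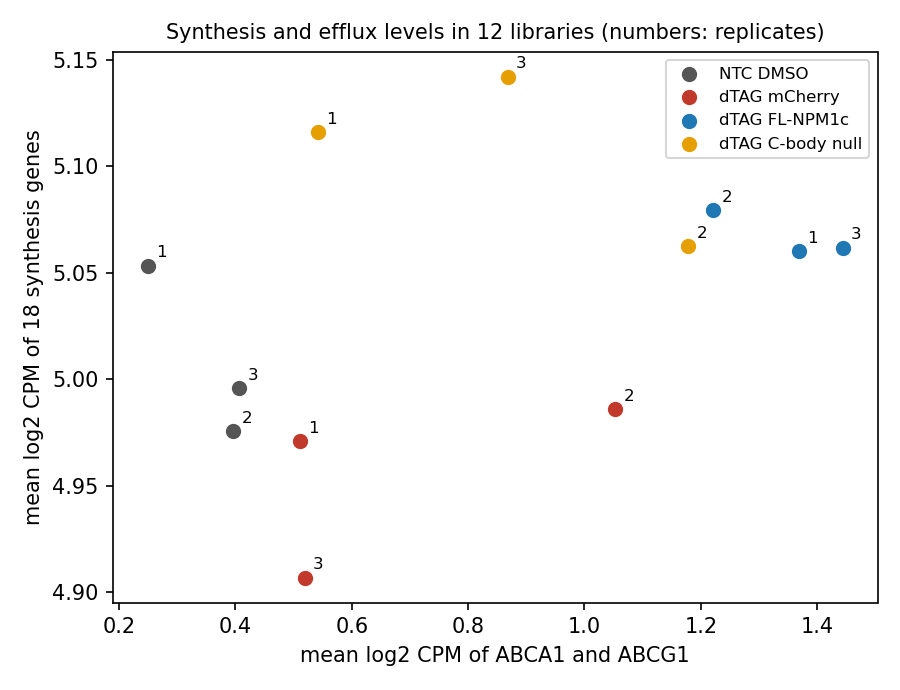
Mean log2 CPM of the 18 synthesis enzymes (vertical) against that of ABCA1 and ABCG1 (horizontal) in each library, coloured by group and numbered by replicate; the axes do not start at 0 and differ in scale. The synthesis means span 4.91 to 5.14. The efflux means run from 0.25 in NTC DMSO replicate 1 to 1.44 in dTAG FL-NPM1c replicate 3. They rest on 2 genes, of which ABCG1 had few counts, so the spans of the axes are not compared.

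The synthesis enzymes were also averaged by stage. Mevalonate enzymes averaged 5.46 ± 0.06 log2 CPM for NTC DMSO, 5.27 ± 0.09 for dTAG mCherry, 5.40 ± 0.02 for dTAG FL-NPM1c and 5.40 ± 0.05 for dTAG C-body null. Sterol enzymes averaged 4.72 ± 0.03, 4.75 ± 0.02, 4.86 ± 0.01 and 4.92 ± 0.03. In dTAG C-body null against NTC DMSO, 0 of 7 mevalonate enzymes were called higher and 3 lower (ACAT2, HMGCS1 and IDI1), and of the 11 sterol enzymes 4 were higher (FDFT1, LSS, TM7SF2 and DHCR7) and 1 lower (HSD17B7), where 14.1% of all genes were higher and 12.4% lower. Of these 8 calls, only those of IDI1 and TM7SF2 held with each library left out, as given above. The counts were 0 higher and 2 lower of the mevalonate enzymes, and 1 higher and 1 lower of the sterol enzymes, in dTAG FL-NPM1c against NTC DMSO. They were 0 and 2, and 1 and 0, in dTAG mCherry against NTC DMSO. No difference between the stages was tested. Over all 33 members the median log2 fold change was -0.04 in dTAG mCherry against NTC DMSO and 0.13 in dTAG FL-NPM1c against dTAG mCherry, beside medians of all genes of -0.0016 and -0.0019.

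Which dTAG mCherry library was left out moved the comparison with full-length NPM1c. Without dTAG mCherry replicate 2, the members called in dTAG FL-NPM1c against dTAG mCherry went from 4 to 13, of which 11 were higher: PMVK, FDPS, LSS, TM7SF2, NSDHL, DHCR7, SREBF1, SREBF2, FASN, NR1H3 and ABCG1. SC5D and STARD4 were the 2 lower. In that fit 27.8% of all genes tested were called, against 15.5% with all libraries, and 39.4% of the members were. SREBF1 then had a log2 fold change of 0.72 and SREBF2 of 0.37. Without dTAG mCherry replicate 3, the other extreme, 1 member and 7.63% of all genes were called. Without any 1 of the 4 remaining libraries, 1 or 2 members were called. In dTAG mCherry against NTC DMSO, the same 6 members were called with and without that replicate.

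A further 37 genes of the pathway, listed as its lipogenic enzymes, SREBP processing factors, cholesterol handling genes, LXR partners and targets, and oxysterol enzymes, were looked at beside the members, and 34 of them passed the filter. Of these, 8 were higher and 4 lower in dTAG mCherry against NTC DMSO (35.3%, where 22.6% of all genes were called), and 4 higher and 8 lower in dTAG FL-NPM1c against dTAG mCherry (35.3%, all genes 15.5%). The count was 0 in dTAG C-body null against dTAG mCherry (all genes 0.594%), and 1 higher and 5 lower in dTAG FL-NPM1c against dTAG C-body null (17.6%, all genes 9.68%). For the 0, edgeR gave 5 at an unadjusted p under 0.05 and DESeq2 called 0. In dTAG FL-NPM1c against NTC DMSO 6 were higher and 8 lower (41.2%, all genes 27.9%), and in dTAG C-body null against NTC DMSO 7 were higher and 5 lower (35.3%, all genes 26.6%). Because the list was drawn up with earlier results known, nothing is read from these shares. GRAMD1C, CYP27A1 and CH25H did not pass the filter.

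Both cholesteryl ester hydrolases described here were lower with full-length NPM1c than with mCherry alone. LIPA, the lysosomal acid lipase that frees cholesterol from lipoprotein esters, was at 56.1, 56.8 and 43.8 CPM in NTC DMSO, 84.9, 80.4 and 100.3 in dTAG mCherry, 59.8, 62.4 and 67.2 in dTAG FL-NPM1c, and 99.4, 97.3 and 87.1 in dTAG C-body null. The dTAG FL-NPM1c libraries lay between NTC DMSO and the other dTAG groups with no overlap. LIPA rose by 0.76 ± 0.11 on the log2 scale in dTAG mCherry against NTC DMSO (edgeR adjusted p = 6.92e-05), and its log2 fold change in dTAG FL-NPM1c was -0.49 ± 0.11 against dTAG mCherry (edgeR adjusted p = 0.00693) and -0.58 ± 0.11 against dTAG C-body null (edgeR adjusted p = 0.00180). NCEH1, a neutral cholesteryl ester hydrolase of macrophages, was at 37.2, 34.7 and 42.1 CPM in dTAG mCherry and 25.8, 25.4 and 27.3 CPM in dTAG FL-NPM1c (-0.53 ± 0.09, edgeR adjusted p = 0.00154).

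Other LXR targets did not share 1 direction in dTAG FL-NPM1c against dTAG mCherry. PLTP, which transfers phospholipid between lipoproteins, rose by 0.64 ± 0.11 in dTAG FL-NPM1c against NTC DMSO (log2, edgeR adjusted p = 0.000697). SMPDL3A, a phosphodiesterase, was at 3.37, 3.11 and 4.71 CPM in dTAG mCherry and only 2.09, 2.05 and 1.77 CPM in dTAG FL-NPM1c (log2 fold change -0.91 ± 0.19, edgeR adjusted p = 0.00435). Against NTC DMSO, SMPDL3A was called higher in dTAG mCherry (log2 fold change 1.20) and in dTAG C-body null (0.82). Both of these calls held with every library left out. In the comparison of full-length NPM1c with mCherry alone, PLTP was called higher (log2 fold change 0.42 ± 0.11, edgeR adjusted p = 0.0214). SREBF1 was also called higher, a call lost without dTAG FL-NPM1c replicate 1 or 2 or dTAG mCherry replicate 3. SMPDL3A was lower, and ABCA1 and MYLIP were not called. ABCG1 is not counted here, since it passed the low-count filter only through the dTAG FL-NPM1c libraries. Its call was lost without any library other than dTAG mCherry replicate 2. The PLTP call there was lost without dTAG FL-NPM1c replicate 1 or 2 or dTAG mCherry replicate 1 or 3 (0.0645 to 0.0941). Of the 12 monocyte and macrophage markers, 4 were also lower in that comparison, where 7.95% of all genes were, and their part in it was not tested.

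Of the lipogenic enzymes outside the members, FADS2, a fatty acid desaturase, rose by 0.65 ± 0.12 on the log2 scale in dTAG FL-NPM1c against dTAG mCherry (edgeR adjusted p = 0.00208), from 57.3, 75.4 and 51.9 CPM to 97.0, 97.6 and 95.8 CPM. ME1, the malic enzyme that supplies reducing power, went the other way, from 55.3, 45.2 and 63.1 CPM to 37.4, 32.9 and 35.4 CPM (-0.63 ± 0.11, edgeR adjusted p = 0.00120). These groups did not overlap for either gene. ELOVL6, a fatty acid elongase, was lower in dTAG C-body null than in NTC DMSO by a log2 fold change of -0.70 ± 0.23 (edgeR adjusted p = 0.0313), a call lost without NTC DMSO replicate 2 or dTAG C-body null replicate 1 or 3 (0.0745 to 0.195). Chosen after their values were seen, the sterol-regulated degradation factors ERLIN1 and ERLIN2 were lower with full-length NPM1c than in each other group. Against dTAG mCherry their log2 fold changes were -0.43 and -0.48, and against dTAG C-body null -0.46 and -0.52, with calls that held with every library left out.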

How the data were processed

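The authors deposited 1 table of whole-number counts per gene and library, keyed by Ensembl ID. STAR, featureCounts and DESeq2 are listed in the submitters' processing notes without versions, with hg38 as the build. Which annotation release and strand setting were used, and how multi-mapping reads were handled, is not given in the sources used here, so counts of overlapping genes and of copies are uncertain. The mRNA libraries were stranded, per the labels' protocols. Of 78936 lines, 6 were broken, and the 2 genes they belong to were left out. Columns were matched to samples by library number. Symbols came from a gene name table, and coordinates and exon lengths from GENCODE 29.

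Counts of all 12 libraries (4 groups of 3) entered 1 edgeR 4.0.16 quasi-likelihood fit in R 4.3.3 (robust, TMM factors of 0.975 to 1.02, low genes removed with filterByExpr by group, which took 0.0795% of counts). The 6 contrasts were adjusted by Benjamini-Hochberg over 24064 genes, and an adjusted p under 0.05 was called. The standard error is the size of the log2 fold change over the root of its F statistic. CPM uses TMM-scaled totals, and scores use log2 CPM with a prior count of 2. The code was tested on simulated data. The alternatives covered scaling (RLE factors, library totals), filtering (none, or at least 50 counts in at least 3 libraries), DESeq2 1.42.0, fits of only the 2 groups compared, a replicate block, and fits without each library in turn. Python 3.11.15 was used for tables, promoter windows and figures.

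The members and lists were chosen with earlier results of these data known. All 33 members are named. Of the other pathway genes, up to 8 that were called are named, largest fold changes first, and exceptions are marked; an item that the rule allows is not reported here.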

Additional observations from a re-analysis of the deposited data

How the results depend on the processing

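No called value turned in direction. The synthesis minus efflux difference between dTAG C-body null and dTAG mCherry, -0.02, was near 0 and took either sign: 0.03 with MYLIP added to the exporters, and -0.18 to 0.16 with 1 library left out. Of the recomputed values for single members, 2395 kept their side of the threshold, 93 lost it and 74 gained it. The members called in dTAG FL-NPM1c against dTAG mCherry were 4, and 7 with no low-count filter and 1 to 13 with 1 library left out (13 without dTAG mCherry replicate 2, otherwise 1 or 2). In dTAG C-body null against dTAG mCherry they were 0, with 2 with no low-count filter (LSS and DHCR7), 2 by DESeq2 and 0 to 6 with 1 library left out, the 6 without dTAG mCherry replicate 2. Between dTAG FL-NPM1c and dTAG C-body null they were 4, with 8 for the 2 groups alone and 1 to 4 with 1 library left out (4 only without dTAG C-body null replicate 3). In dTAG FL-NPM1c against NTC DMSO they were 9, with 14 for the 2 groups alone and 6 to 15 with 1 library left out, the 15 without NTC DMSO replicate 3. In dTAG C-body null against NTC DMSO, 13 became 6 to 16, with 6 to 8 without NTC DMSO replicate 1 or 2 or any dTAG C-body null library, and in dTAG mCherry against NTC DMSO, 6 became 4 to 9. DESeq2 called 9 members in the last comparison, 2 higher and 7 lower. Leaving out dTAG mCherry replicate 2 and NTC DMSO replicate 3 together, chosen after seeing the data, gave 8 there. The synthesis minus efflux difference between dTAG FL-NPM1c and NTC DMSO was -0.93, and -1.08 with a prior count of 0.5 and -0.73 with MYLIP added to the exporters. The cause of these shifts was not tested.

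Replicate numbers did not pair the samples: deviations of same-numbered libraries correlated at -0.307 to 0.159 over 18 pairs, with a median of -0.0185. With the replicate number as a block, 2 members were called in dTAG FL-NPM1c against dTAG mCherry and 2 between dTAG FL-NPM1c and dTAG C-body null.

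Over all genes, the calls in dTAG C-body null against dTAG mCherry were 143, and 371 by DESeq2, 368 with no filter, 86 with the block and 63 for the 2 groups alone. Depth limited ABCG1, with 3 to 24 counts per library. Reads without molecular identifiers are not independent molecules, so counting error is a lower bound on the error.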
